A study of Rattus norvegicus with 8 samples.

Results

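A set of 40 genes of the presynaptic release machinery was followed across the cell bodies and axons of cultured rat sensory neurons. They were taken by symbol from a list drawn up for this description, which covers vesicle membrane proteins, calcium sensors, SNARE proteins and their regulators, active zone proteins, endocytic proteins, synucleins, glutamate transporters and neurexins. All 40 listed genes were found among the 17379 genes of the deposited files. Neurons from dorsal root ganglia of rats at embryonic day 15 had been kept for 7 days in microfluidic chambers, in which axons grow into a compartment separate from the cell bodies. The neurons received a lentivirus carrying a control hairpin (shControl) or a hairpin against Pum2 (shPum2) when they were plated, so every group carried a virus. RNA was sequenced from the somatic and the axonal side, in 2 libraries for each of the 4 groups, and no strain, sex or promoter of the virus was given in the labels. Somatic RNA was labelled as coming from cell bodies and axons together. The kit was a standard one for somatic and an ultra-low input one for axonal libraries, so that compartment cannot be told apart from kit. No label said that the replicates were separate cultures, so the p-values measure the spread between these libraries, which may be technical.

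Synaptic vesicles fill with transmitter, dock at the active zone and are primed, and they fuse when a calcium sensor acts on the SNARE proteins that bridge vesicle and plasma membrane. The SNARE complexes are then taken apart by NSF and its SNAP adaptors, and the vesicle membrane is retrieved by clathrin, dynamin and their partners. Sensory neurons release glutamate from their central terminals, and their growing axons also use SNARE proteins to add membrane before any synapse forms. The labels name no target cells on the axonal side.

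Totals ranged from 16725876 to 25821766 estimated counts in somatic and from 11641947 to 16131611 in axonal libraries, which puts 3 counts at 0.116 to 0.258 CPM (counts scaled to a total of 1000000 per library). Pum2 itself stood at 164 and 160 CPM in somatic shControl and at 38.2 and 36.5 CPM in somatic shPum2, a log2 difference of -2.13 (adjusted p = 0.0247, edgeR quasi-likelihood test). Axonal Pum2 was 3.25 and 0.44 CPM in the shControl pair and 1.46 and 7.07 CPM in the shPum2 pair, so the groups overlapped there. All 16 matched neuronal markers had counts in every library, with summed levels of 34631 to 40451 CPM in somatic and 19082 to 35102 CPM in axonal libraries. Nefm alone made up 10288 to 23707 CPM of the axonal sums, against 8756 to 10072 CPM in somatic libraries. The axonal sums therefore follow mainly this 1 gene. Fibroblast markers (11 matched) came to 3611 and 1853 CPM in total in the somatic shControl pair, 9163 and 1831 CPM in the somatic shPum2 pair, and 70.7 to 792 CPM in axonal libraries. The 11 macrophage markers summed to 67.7 to 263 CPM in somatic libraries. In axonal libraries they reached 2185 and 2868 CPM with shControl and 3817 and 237 CPM with shPum2, with Itgam at 0 counts in 3 of these libraries and Ptprc in 1. Lyz2 alone made up 816 and 2190 CPM of these sums with shControl and 2061 and 172 CPM with shPum2. Csf1r, C1qa and C1qc stood at 153, 189 and 234 CPM in replicate 1 of axonal shControl. In replicate 2 they stood at 0.30, 0.37 and 0.22 CPM. The order of the axonal libraries by this sum is therefore not that of each marker. Schwann and satellite glia markers (10 matched) stayed at 25.5 to 201 CPM and endothelial markers (6) at 0.26 to 22.8 CPM in all libraries.

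The starts of 35 of the 40 genes are held in a RefSeq table of assembly GRCr8, which lacks entries for Snap25, Vamp3, Rims2, Nrxn2 and Nrxn3. The 250 bases before the start had a median GC content of 66%, from 50.4% to 74%, against 51.2% over all 33469 promoters and 60% over the 9487 promoters of genes tested in somatic libraries. Both strands were searched for 4 motifs. The GC box GGGCGG was found in 25 of the 35, against 58% of promoters of tested genes and 30.5% of all promoters. The CCAAT box was found in 9, against 35.1% and 34%. The TATA box TATAAA was found in 0, against 6.62% and 12.9%. The cyclic AMP response element TGACGTCA was found in 5 (Syn1, Vamp1, Napa, Cltb and Sh3gl2), against 2.97% and 1.59%. A match is a description of these letters and was not tested as a site. Slc17a6 and Slc17a7, the genes of 2 vesicular glutamate transporters, are shown because their somatic levels lay so far apart (254 to 300 TPM against 0.115 to 0.254 TPM, a share of transcripts that allows for their length and totals 1000000 per library), and Syn1 and Vamp1 as carriers of the cyclic AMP response element. Capitals mark matches to the 4 motifs on either strand, on the strand of the gene from 5′ to 3′. The Slc17a6 promoter lies at chr1:110348197-110348446 on the plus strand, the Slc17a7 promoter at chr1:104785955-104786204 (plus), the Syn1 promoter at chrX:3725495-3725744 (plus) and the Vamp1 promoter at chr4:159698644-159698893 (plus).
Slc17a6: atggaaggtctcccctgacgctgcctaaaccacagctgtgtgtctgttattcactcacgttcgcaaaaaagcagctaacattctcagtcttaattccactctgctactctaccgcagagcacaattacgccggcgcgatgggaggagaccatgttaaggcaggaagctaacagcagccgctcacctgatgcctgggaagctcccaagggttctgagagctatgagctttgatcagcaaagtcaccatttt
Slc17a7: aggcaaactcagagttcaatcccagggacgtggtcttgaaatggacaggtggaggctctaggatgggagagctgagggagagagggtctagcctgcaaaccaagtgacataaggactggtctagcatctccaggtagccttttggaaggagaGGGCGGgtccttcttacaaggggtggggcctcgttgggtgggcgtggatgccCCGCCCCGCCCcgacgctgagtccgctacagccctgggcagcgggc
Syn1: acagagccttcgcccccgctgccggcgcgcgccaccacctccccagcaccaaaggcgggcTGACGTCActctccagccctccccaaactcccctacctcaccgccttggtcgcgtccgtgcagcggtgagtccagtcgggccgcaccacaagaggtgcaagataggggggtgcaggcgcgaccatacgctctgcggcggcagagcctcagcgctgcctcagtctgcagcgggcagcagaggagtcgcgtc
Vamp1: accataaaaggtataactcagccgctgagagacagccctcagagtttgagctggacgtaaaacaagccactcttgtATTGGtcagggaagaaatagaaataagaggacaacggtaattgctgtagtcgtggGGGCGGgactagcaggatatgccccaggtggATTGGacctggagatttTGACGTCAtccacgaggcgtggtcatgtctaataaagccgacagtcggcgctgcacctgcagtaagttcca
The window of Slc17a6 held 0 matches to any of the 4 motifs and that of Slc17a7 held 3 GC boxes.

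In somatic RNA the release machinery was present almost in full. Of the 40 genes, 39 were above 1 CPM in each of the 4 somatic libraries. The exception was Slc17a7 (VGLUT1), with 0.18, 0.13, 0.28 and 0.19 CPM in these libraries, shControl first, which is near the level of 3 counts, and at 0 counts in all 4 axonal libraries. Slc17a6 (VGLUT2), the other transporter that loads vesicles with glutamate, stood at 627 and 691 CPM with shControl and 579 and 684 CPM with shPum2. Levels are compared between genes in TPM. Sncg, the gamma-synuclein gene of sensory neurons, was the highest of the 40, with 4186 and 3961 TPM in somatic shControl and 3570 and 3925 TPM in somatic shPum2. It took 33.9% to 35.8% of the summed TPM of the 40 genes in somatic libraries.

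Among vesicle membrane genes the highest in somatic shControl were Syp (synaptophysin, an abundant vesicle protein), at 531 and 562 TPM, and Sv2a (a vesicle glycoprotein), at 159 and 154 TPM. With shPum2 they stood at 440 and 542 TPM and at 134 and 150 TPM. Among the 3 synaptotagmins of the set the highest was Syt11, at 583 and 570 TPM with shControl and 487 and 548 TPM with shPum2. Syt4 followed at 389 and 373 TPM and then 290 and 342 TPM. Both are family members with little calcium binding of their own, whereas Syt1, the sensor for fast release, stood at 178 and 180 TPM with shControl and 157 and 190 TPM with shPum2. The order of these 3 was therefore Syt11, Syt4 and Syt1 in every somatic library.

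The SNARE genes were led by Vamp2 (synaptobrevin 2, on the vesicle), at 635 and 634 TPM with shControl and 583 and 681 TPM with shPum2. Snap25, its partner on the plasma membrane, followed at 393 and 455 TPM and then 367 and 488 TPM. Of their regulators, Cplx1 (complexin 1, a clamp and helper of fusion) stood at 499 and 465 TPM with shControl and 422 and 501 TPM with shPum2. Cplx2 stood at 240 and 243 TPM and then 207 and 272 TPM.

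The 5 active zone genes stood at 7.03 to 63.6 TPM in somatic libraries. Unc13a, whose protein primes vesicles, stood at 60.5 and 63.6 TPM with shControl and 55.1 and 58.9 TPM with shPum2. Rims2, a scaffold that ties vesicles to calcium channels, stood at 33.9 and 31.8 TPM and then 29.0 and 28.1 TPM. Of the endocytic genes, both clathrin light chains were high, with Clta at 545 and 563 TPM in shControl and 549 and 563 TPM in shPum2. Cltb stood at 516 and 527 TPM and then 463 and 524 TPM. Sncb (beta-synuclein) stood at 68.2 and 62.5 TPM with shControl and 60.04 and 56.3 TPM with shPum2. The adhesion gene Nrxn2 stood at 235 and 214 TPM and then 208 and 219 TPM, and Nrxn3 at 8.10 and 8.06 TPM and then 7.23 and 8.46 TPM. Replicate somatic libraries differed by a median of 1.06-fold over the 40 genes with shControl and 1.15-fold with shPum2, and no gene differed by more than 1.52-fold.

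**Figure D1:**
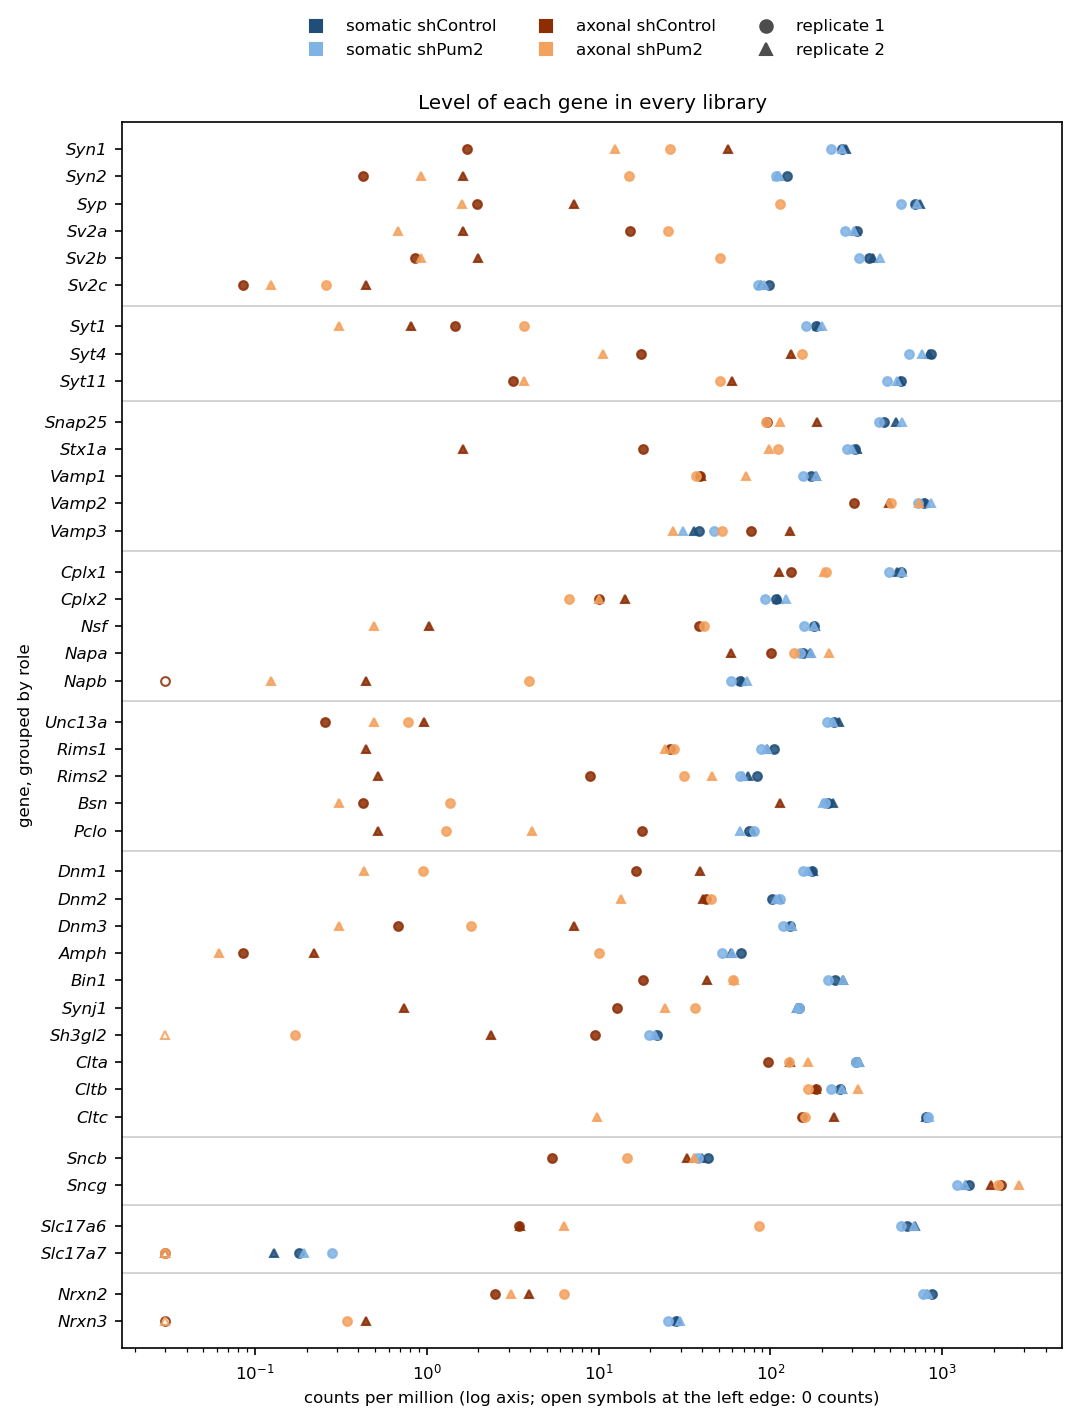
Level of each of the 40 genes (rows, grouped by role) in each of the 8 libraries, in CPM on a log axis. Somatic libraries (blue) form tight clusters, while axonal libraries (brown and orange) spread over more than 2 decades for genes such as Bsn, at 0.31 to 114 CPM. Open symbols at the left edge stand for 0 counts.

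In axonal RNA some of these genes were found in every library, some stayed low in every library, and many differed widely between replicates. Summed over the 40 genes, the axonal libraries held 3670 to 5044 CPM against 10955 to 12457 CPM in somatic libraries. At least 1 count was found for 37 to 39 of the 40 genes in axonal libraries. At 1 CPM or more there were 30 and 29 genes with shControl and 34 and 25 genes with shPum2. In CPM, 34 of the 39 genes tested lay lower in all 4 axonal than in all 4 somatic libraries, against 58.4% of all genes tested, and 1 (Sncg) lay higher in all 4, against 7.73%.

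Of the 39 genes at 10 CPM or more in every somatic library, 12 (30.8%) were at 10 CPM or more in every axonal library too. The same was true of 28.4% of the 8124 genes with that somatic level, so the share of these genes was near that of all genes. Besides Sncg these were the SNARE genes Snap25, Vamp1, Vamp2 and Vamp3, the regulators Cplx1 and Napa, the endocytic genes Dnm2, Bin1, Clta and Cltb, and Syt4. Sncg stood at 2209 and 1922 CPM in axonal shControl and 2129 and 2815 CPM in axonal shPum2, against 1219 to 1433 CPM in somatic libraries. Its share of the summed TPM of the 40 genes was 74.5% to 81.7% in axonal libraries. Vamp2 stood at 308 and 493 CPM with shControl and 506 and 731 CPM with shPum2, against 727 to 859 CPM in somatic libraries. Its axonal values lay in the range of its somatic values in 1 of the 4 libraries.

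Cltb stood at 184 and 185 CPM in axonal shControl and 165 and 324 CPM in axonal shPum2, and Clta at 97.1 and 130 CPM and then 129 and 166 CPM. The clathrin heavy chain gene Cltc was less even, at 154 and 234 CPM with shControl and 158 and 9.73 CPM with shPum2, so 1 library lay far below the others. Cplx1 stood at 132 and 112 CPM with shControl and 210 and 204 CPM with shPum2, and Snap25 at 96.3 and 188 CPM and then 94.0 and 115 CPM. Napa (alpha-SNAP, the adaptor that brings NSF to SNARE complexes) stood at 100.4 and 59.3 CPM with shControl and 137 and 219 CPM with shPum2. Its close relative Napb (beta-SNAP, the form of nerve cells) stood at 0 and 0.44 CPM and then 3.95 and 0.12 CPM, although its somatic levels were 58.8 to 73.6 CPM. Nsf itself was at 38.6 and 1.034 CPM with shControl and 41.1 and 0.50 CPM with shPum2, high in replicate 1 and low in replicate 2 of both groups.

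Of the same 39 genes, 8 (20.5%) stayed under 10 CPM in every axonal library, against 20.7% of all genes with that somatic level. These were Sv2c, Syt1, Napb, Unc13a, Dnm3, Sh3gl2, Nrxn2 and Nrxn3. Unc13a stood at 0.26 and 0.96 CPM in axonal shControl and 0.77 and 0.50 CPM in axonal shPum2, and at 214 to 250 CPM in somatic libraries. Nrxn2 stood at 2.48 and 3.92 CPM and then 6.27 and 3.10 CPM, against 778 to 876 CPM in somatic libraries. Sv2c, the third member of its glycoprotein family, stood at 0.09 and 0.44 CPM and then 0.26 and 0.12 CPM, values at or near 3 counts. In all 3 genes each somatic library lay above each axonal library by a wide gap.

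Many genes, some of the 12 and the 8 among them, varied from library to library. Of the 39 genes, 18 were under 1 CPM in at least 1 axonal library (46.2%, against 52.8% of all genes with that somatic level), and the axonal libraries of 23 were over 10-fold apart (59.0%, against 60%). Replicates differed by a median of 2.59-fold in axonal shControl and 2.08-fold in axonal shPum2. These medians cover only genes of the set with counts in both replicates, 37 in each group. For all genes with that somatic level the medians were 3.45-fold and 3.32-fold. Those keep genes at 0 counts in a replicate, so the medians of the set cannot be set against them. The widest gaps among genes with counts in both replicates were those of Bsn in shControl (265-fold) and Amph in shPum2 (162-fold). The lower replicate held only 5 counts for Bsn and 1 count for Amph, so the sizes of these folds are imprecise. Syp stood at 1.97, 7.17 and 1.61 CPM in 3 axonal libraries and at 114 CPM in replicate 1 of shPum2. Sv2b, Syn2 and Amph were also highest in that library, at 50.8, 15.1 and 10.05 CPM, against at most 1.995, 1.63 and 0.22 CPM in the other axonal libraries. Other genes were high in replicate 2 of shControl and replicate 1 of shPum2. Syt4 stood at 17.6 and 131 CPM with shControl and 152 and 10.7 CPM with shPum2, and Syt11 at 3.17 and 59.7 CPM and then 50.8 and 3.66 CPM. Sv2a was high in replicate 1 of both groups, at 15.3 and 1.63 CPM and then 25.3 and 0.68 CPM. Cplx2 was more even, at 10.1 and 14.2 CPM and then 6.70 and 10.04 CPM. Sncb stood at 5.39 and 32.8 CPM with shControl and 14.7 and 36.1 CPM with shPum2, and Nrxn3 at 0 and 0.44 CPM and then 0.34 and 0 CPM. Syn1 ranged from 1.71 to 56.8 CPM over the axonal libraries, Rims1 from 0.44 to 27.3 CPM, Synj1 from 0.74 to 36.4 CPM, Bin1 from 18.1 to 61.1 CPM and Vamp1 from 36.8 to 71.8 CPM. No 1 library was therefore low for all of these genes. Replicate 1 of shPum2 had the highest summed neuronal (35102 CPM) and macrophage (3817 CPM) markers of the axonal libraries. Of its neuronal sum, Nefm made up 23707 CPM, and of its macrophage sum, Lyz2 made up 2061 CPM. The part of these markers in the values was not tested.

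**Figure D2:**
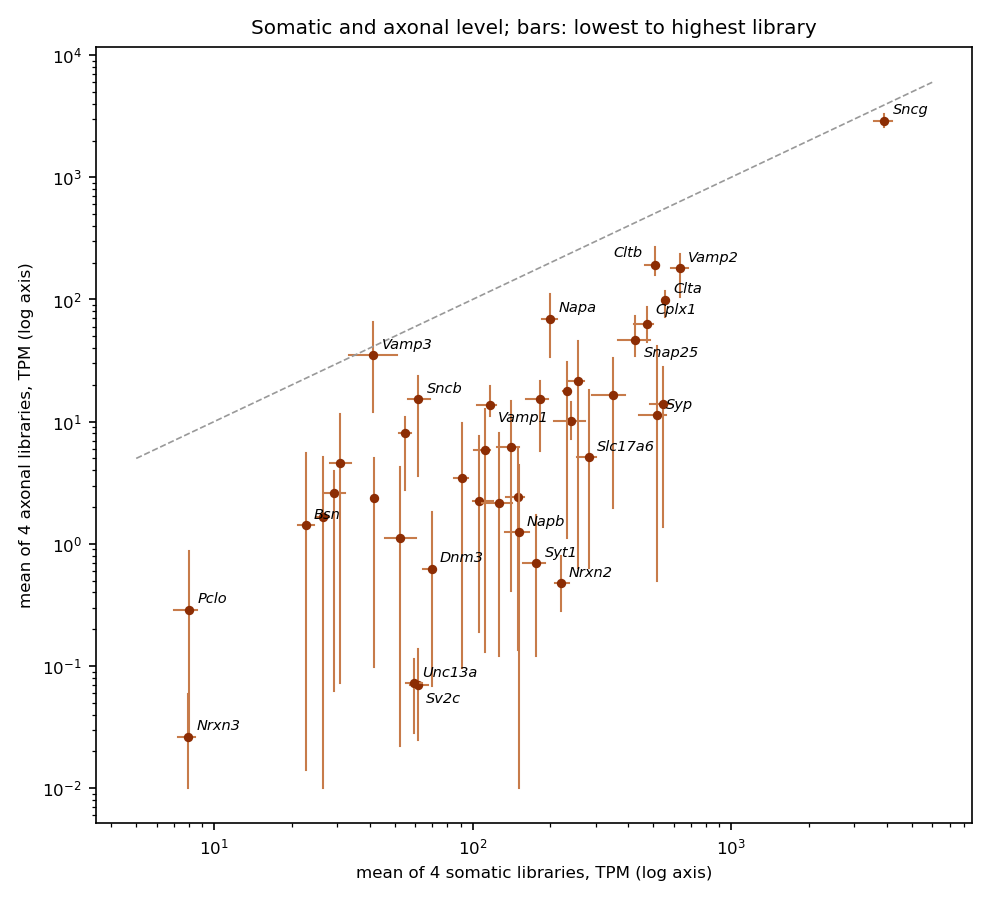
Mean axonal against mean somatic level of 39 genes in TPM, both axes log, with bars from the lowest to the highest of 4 libraries and a dashed line of equality; Slc17a7 is left out, and a bar that reaches the bottom ends in a library at 0. Sncg and Vamp3 lie nearest the line, while Unc13a, Sv2c and Nrxn2 lie furthest below it and many genes have axonal bars of over 10-fold.

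Axonal and somatic libraries were compared in a fit of all 8 libraries, separately for each hairpin. Under edgeR's TMM scaling the median log2 difference of all genes was -0.75 with shControl and -0.64 with shPum2. Under scaling by total counts it was -2.34 and -2.03, so the choice of scaling moved the median by more than 1 log2 unit. With shControl 11 of the 39 genes tested passed an adjusted p of 0.05 (28.2%), against 27.9% of all genes. Higher in axonal libraries were 2 (9.41% of all genes) and lower 9 (18.5%). The median over the 39 genes was -1.59. With shPum2 8 of the 39 passed (20.5%, against 24.7% of all genes), of which 1 was higher (8.45% of all genes) and 7 lower (16.2%), with a median of -2.08.

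Sncg was higher in axonal libraries with both hairpins, by 2.14 (SE 0.40, adjusted p = 0.0183) and 2.54 (SE 0.41, adjusted p = 0.0135) on the log2 scale, edgeR quasi-likelihood test. By total-count scaling the log2 differences were 0.56 and 0.94, and in TPM its mean axonal level was 74.6% of the somatic level, so its direction depended on the scale. Vamp3, a SNARE of recycling endosomes found in many cell types, was at 77.4 and 131 CPM in axonal and 38.7 and 35.8 CPM in somatic shControl libraries, a log2 difference of 3.06 (SE 0.56, adjusted p = 0.018). With shPum2 its axonal values of 52.4 and 27.1 CPM overlapped the somatic values of 47.2 and 31.2 CPM, and the log2 difference of 1.49 did not pass. Vamp3 did not pass under total-count scaling (log2 difference 1.48 with shControl), and in TPM its axonal mean was 84.8% of the somatic mean. The axonal library with the lowest summed macrophage markers (237 CPM) had the lowest axonal Vamp3 level. That with the highest sum (3817 CPM) had Vamp3 at 52.4 CPM. The part of these markers in these values was not tested.

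Sv2c, Syt1, Unc13a and Nrxn2 were lower in axonal libraries with both hairpins. Unc13a fell by 7.06 on the log2 scale with shControl (SE 0.85, adjusted p = 0.00598) and by 6.96 with shPum2 (SE 0.85, adjusted p = 0.0065). Nrxn2 fell by 6.46 (SE 0.47, adjusted p = 0.00389) and 5.98 (SE 0.45, adjusted p = 0.00485, edgeR). Sv2c had log2 differences of -6.86 and -7.38 (adjusted p = 0.0123 and 0.0121). Syt1 stood at 184, 189, 162 and 199 CPM in the 4 somatic libraries, shControl first, and at 1.45, 0.81, 3.69 and 0.31 CPM in the axonal ones. Its log2 differences were -5.77 and -5.24 (adjusted p = 0.019 and 0.0208, edgeR).

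Another 5 genes fell with shControl and missed the threshold with shPum2. Syp stood at 693 and 745 CPM in somatic and 1.97 and 7.17 CPM in axonal shControl libraries (log2 difference -5.73, adjusted p = 0.0454, edgeR), and at 576 and 719 against 114 and 1.61 CPM with shPum2 (-2.29). Slc17a6 was at 3.42 and 3.47 CPM in axonal shControl (-6.00, adjusted p = 0.0165, edgeR) and at 85.9 and 6.32 CPM in axonal shPum2 (-2.53). Syn2 (synapsin 2, which tethers vesicles to the cytoskeleton) was at 125 and 111 CPM in somatic and 0.43 and 1.63 CPM in axonal shControl libraries (-5.27, adjusted p = 0.0325, edgeR). With shPum2 it was at 108 and 113 against 15.1 and 0.93 CPM (-2.54). Sv2b was at 377 and 399 against 0.86 and 1.995 CPM with shControl (-6.51, adjusted p = 0.0294, edgeR) and at 328 and 432 against 50.8 and 0.93 CPM with shPum2 (-2.68). Amph (amphiphysin, which recruits dynamin) was at 67.8 and 58.9 against 0.09 and 0.22 CPM with shControl (-7.07, adjusted p = 0.048, edgeR) and at 52.0 and 59.8 against 10.05 and 0.06 CPM with shPum2 (-2.27). In each of these 5 genes replicate 1 of axonal shPum2 was the highest axonal library.

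In contrast, 3 endocytic genes passed with shPum2 and not with shControl. Dnm1, the dynamin of nerve cells, was at 155 and 165 CPM in somatic and 0.94 and 0.43 CPM in axonal shPum2 libraries (-6.41, adjusted p = 0.0065, edgeR), and at 174 and 176 against 16.4 and 38.8 CPM with shControl (-1.10). Dnm3, another dynamin, was at 119 and 134 against 1.80 and 0.31 CPM with shPum2 (-5.58, adjusted p = 0.029, edgeR) and at 130 and 132 against 0.69 and 7.24 CPM with shControl (-3.49). Sh3gl2 (endophilin A1, which bends the membrane of the forming vesicle) was at 19.6 and 21.3 against 0.17 and 0 CPM with shPum2 (-6.59, adjusted p = 0.0336, edgeR) and at 22.0 and 21.7 against 9.58 and 2.36 CPM with shControl (-0.27). The Sh3gl2 difference with shControl was 0.41 without replicate 2 of axonal shControl. The more widely expressed Dnm2 was at 42.4, 40.7, 45.3 and 13.5 CPM in the 4 axonal libraries and passed with neither hairpin (0.22 and -0.54). Tested as an interaction, the difference between the hairpins passed for 0 of these 8 genes, with an adjusted p of 0.329 for Dnm1 (edgeR).

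These calls depended on which library was left out and on the scaling, and the calls over all genes moved too. Without either somatic shControl library the shControl comparison had 0 calls among these genes (0% of all genes). Without replicate 1 or 2 of somatic shPum2 it had 2 (Unc13a and Nrxn2), against 4.07% and 3.92% of all genes. Without replicate 1 or 2 of axonal shControl it had 12 and 13, against 36.7% and 27.6% of all genes, and without replicate 1 or 2 of axonal shPum2 it had 15 each, against 43.6% and 43.4%. The shPum2 comparison had 0 calls without either somatic shPum2 library (0% of all genes). Without replicate 1 or 2 of somatic shControl it had 3 (Unc13a, Nrxn2 and Dnm1), against 2.95% and 3.04% of all genes. Leaving out replicate 1 or 2 of axonal shControl gave 12 and 14 (37% and 37.3% of all genes), and leaving out replicate 1 or 2 of axonal shPum2 gave 20 and 9 (38.3% and 22%). Total-count scaling gave 20 calls with shControl (51.3%, against 34.2% of all genes), all lower, and 15 with shPum2 (38.5%, against 28.8%), of which 1 (Sncg) was higher. Unc13a and Nrxn2 were lower in every alternative run, with log2 differences of -8.61 to -5.73. These runs include the mean of both hairpins, which is not an estimate for either hairpin alone.

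**Figure D3:**
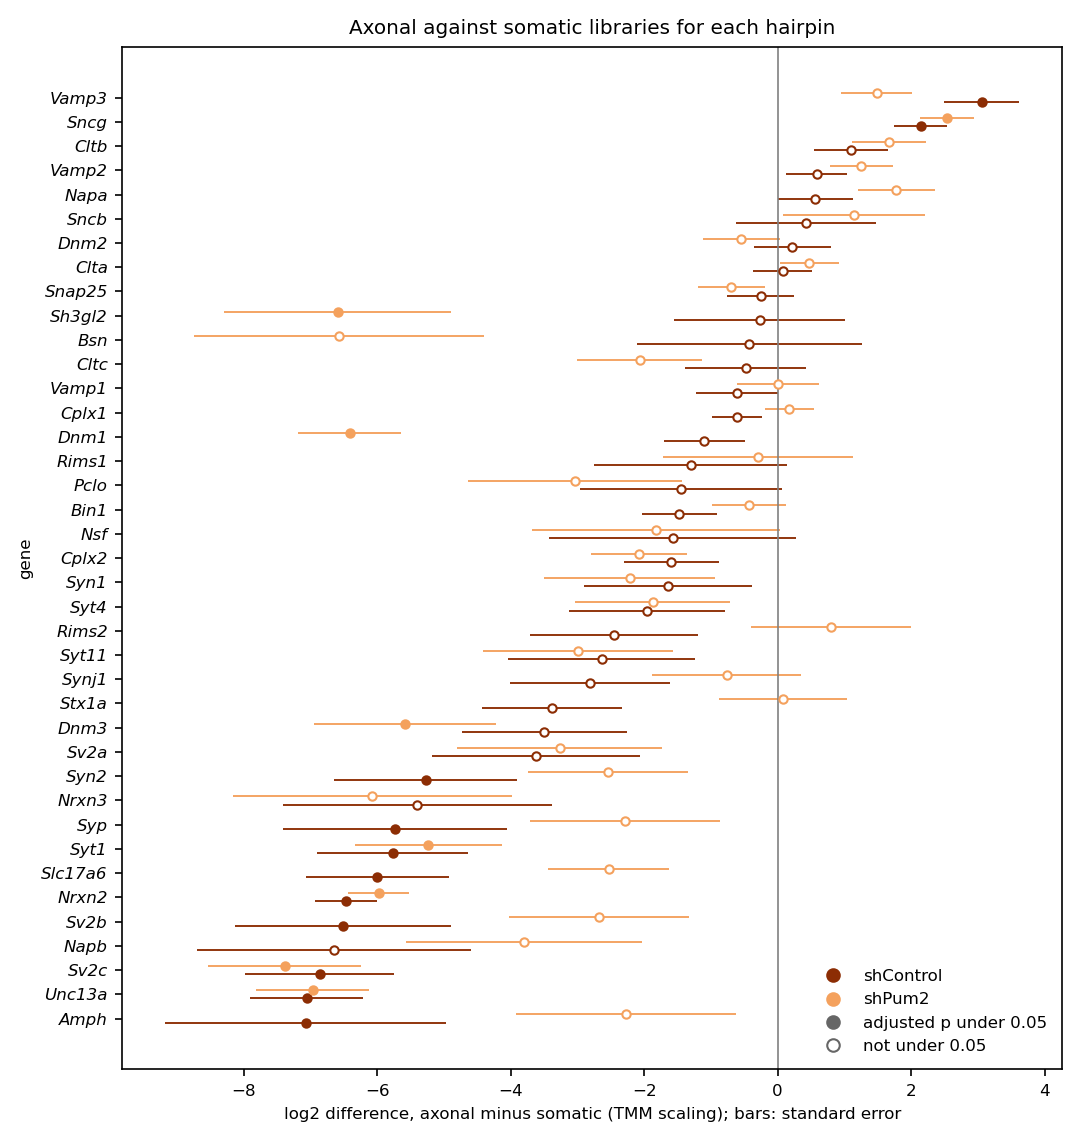
Log2 difference between axonal and somatic libraries under TMM scaling (x axis) for the 39 genes tested, with shControl in brown and shPum2 in orange, bars of 1 standard error and filled symbols where the adjusted p is under 0.05. Sncg lies above 0 with both hairpins; Unc13a, Nrxn2, Sv2c and Syt1 lie below -5 with both, and Sh3gl2, Bsn and Dnm1 lie furthest apart between the hairpins.

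Across the 39 genes the axonal difference was lower for longer transcripts. The Spearman correlation of the log2 difference with the length of the longest transcript was -0.33 with shControl and -0.42 with shPum2 over these genes, and -0.32 and -0.35 over all 12337 genes. The points share their libraries, and genes are not independent replicates. Of the 11 genes with transcripts up to 2000 bases 5 were at 10 CPM or more in every axonal library, with median differences of 0.08 and 0.47. Of the 11 with transcripts up to 3000 bases 5 did, with medians of -1.57 and -0.70. Of the 17 longer genes 2 did, with medians of -2.45 and -2.68. Dnm2 (3463 bases) and Syt4 (3877 bases) were those 2, and Napb, at 897 bases, was the shortest of the 8 genes under 10 CPM in every axonal library. The part of length and of the kit in the axonal levels was not tested.

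Of the 40 genes, 5 had more than 1 transcript in the files, and the split of counts between them is an estimate. For Pclo (piccolo, an active zone scaffold) the transcript of 14825 bases took 8.3% to 19.1% of the estimated counts in somatic libraries and 100% in both axonal shControl libraries. With shPum2 it took 100% and 88.8%. For Rims2 the transcript of 1961 bases took 15.6% to 20.6% in somatic libraries, 73.1% in replicate 1 of axonal shPum2 and 0% in the other 3 axonal libraries. Pclo levels in axons were only 0.52 to 17.9 CPM and those of Rims2 0.52 to 45.6 CPM. For Snap25 the transcript with 95.5% to 97.1% of somatic counts had 53.0% to 96.9% in axonal libraries.

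The somatic knockdown comparison asked whether the somatic level of these RNAs differs between shPum2 and shControl. No gene of the 39 tested passed (0 calls by edgeR and 0 by DESeq2). Of all 12346 genes edgeR called 1 (0.0081%), which is Pum2, and DESeq2 called 2. At an unadjusted p under 0.05 there were 0 of the 39 by edgeR and 1 by DESeq2, against 74 and 70 of all 12346 genes. The differences were small, with 35 of the 39 below 0 (89.7%, against 47.3% of all genes) and a median of -0.08 against 0.01 over all genes. The groups did not overlap in 12 genes (30.8%), against 24.5% of all genes.

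The largest somatic differences among genes with non-overlapping groups were in Syt4, Rims2, Sncb, Syt11 and Dnm1. Syt4 stood at 858 and 835 CPM with shControl and 644 and 767 CPM with shPum2, a log2 difference of -0.27 (SE 0.15). Rims2 stood at 83.6 and 74.3 CPM and then 66.8 and 69.1 CPM (-0.23, SE 0.10). Sncb stood at 43.3 and 40.3 CPM and then 38.2 and 36.2 CPM (-0.18, SE 0.09). The shPum2 values of all 5 genes lay below the shControl values. Syt11 stood at 574 and 569 CPM with shControl and 480 and 547 CPM with shPum2 (-0.16, SE 0.12). Dnm1 stood at 174 and 176 CPM and then 155 and 165 CPM (-0.14, SE 0.09). For each of the 5 the adjusted p was 0.9997 (edgeR).

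The lean to lower values rested on 1 library. Replicate 1 of somatic shPum2 held the lowest somatic value of 31 of the 39 genes (79.5%), against 25.5% of all genes tested. Without it 21 of the 39 differences were above 0 and the median was 0.02. Without replicate 2 of somatic shPum2, 3 were above 0 and the median was -0.23. Replicate 1 also had the lowest summed neuronal markers of the somatic libraries (34631 CPM, against 39875 to 40451 CPM in the other 3) and the highest fibroblast (9163 CPM) and macrophage (263 CPM) markers. In bulk RNA a smaller share of neurons and less RNA per neuron cannot be told apart.

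**Figure D4:**
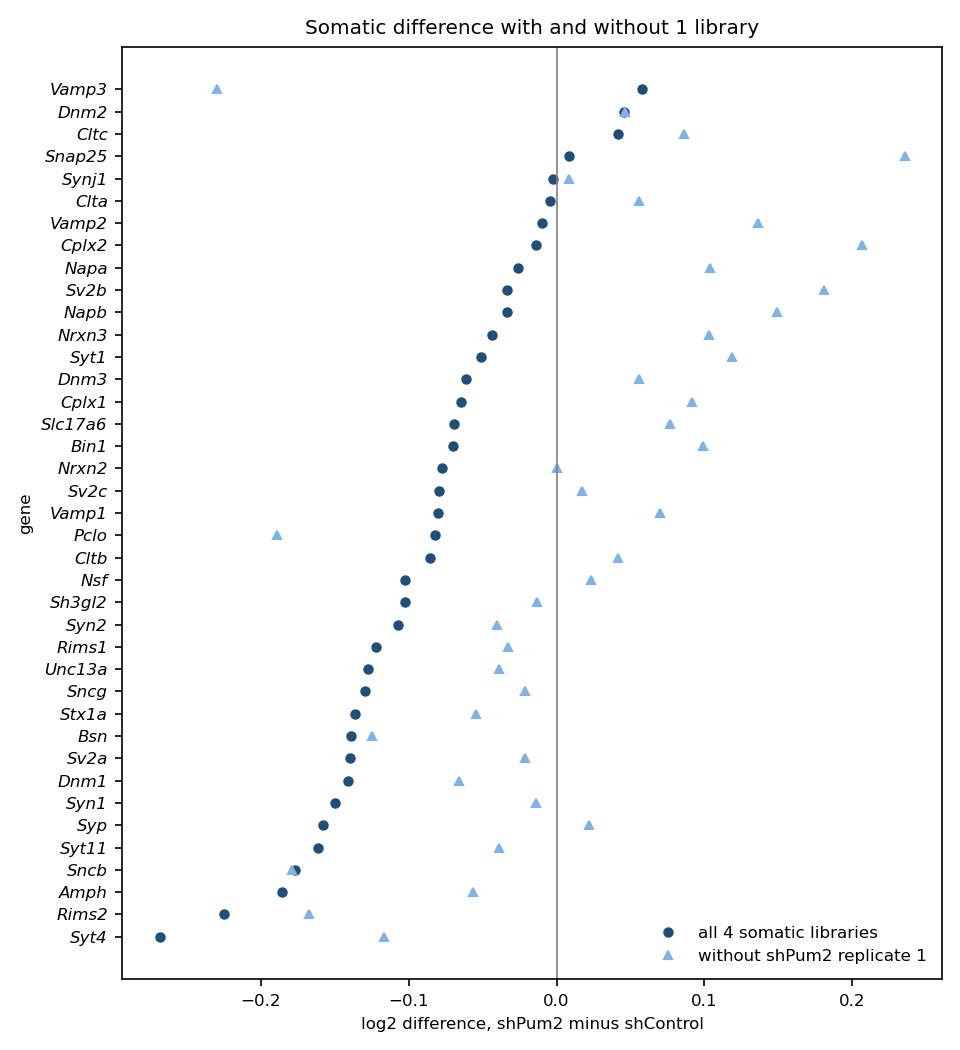
Log2 difference between somatic shPum2 and shControl libraries (x axis) for the 39 genes tested, from all 4 libraries (dark circles) and without replicate 1 of shPum2 (light triangles). With all libraries 35 of 39 points lie below 0, from -0.27 to 0.06, and without that library 21 of 39 lie above 0.

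In the axonal knockdown comparison 34 of the 40 genes passed the expression filter and 0 passed an adjusted p of 0.05, as for all 8517 genes tested (0%). At an unadjusted p under 0.05 there were 3 (Stx1a, Bsn and Dnm1) by edgeR, against 257 of all 8517 genes. DESeq2 called 2 (Bsn and Dnm1), against 1.84% of all genes. The differences were below 0 in 14 of the 34 (41.2%), against 51.7% of all genes. The groups did not overlap in 12 (35.3%), against 27.8% of all genes. In CPM, 8 of these 12 were higher with shPum2 (Stx1a, Vamp2, Cplx1, Napa, Rims2, Bin1, Synj1 and Slc17a6) and 4 lower (Vamp3, Cplx2, Dnm1 and Sh3gl2). The biological coefficient of variation, the spread between replicates in edgeR's fit, was 125% for the axonal and 23.5% for the somatic fit. At this axonal spread, with 2 libraries per group, the 0 calls do not show that axonal levels were equal with both hairpins.

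The 5 genes with the largest axonal differences and non-overlapping groups moved in both directions. Dnm1 stood at 16.4 and 38.8 CPM with shControl and 0.94 and 0.43 CPM with shPum2, a log2 difference of -5.48 (SE 2.22). Sh3gl2 stood at 9.58 and 2.36 CPM and then 0.17 and 0 CPM (-6.32, SE 2.98). Both act in the retrieval of vesicle membrane, and both shPum2 values of Sh3gl2 were at or under 3 counts. Stx1a (syntaxin 1A, a SNARE of the plasma membrane) stood at 18.1 and 1.63 CPM with shControl and 111 and 98.6 CPM with shPum2 (3.28, SE 1.39). Rims2 stood at 8.90 and 0.52 CPM and then 31.6 and 45.6 CPM (2.97, SE 1.95). Slc17a6 stood at 3.42 and 3.47 CPM and then 85.9 and 6.32 CPM (3.41, SE 1.92), so 1 shPum2 library carried most of its difference. For each the adjusted p was 0.9998 (edgeR), and each kept its direction when any 1 axonal library was left out, though the sizes moved. Slc17a6 was at 1.04 without replicate 1 of shPum2, and without replicate 1 of shControl Rims2 was at 6.24 and Stx1a at 5.97. Sh3gl2 ranged from -9.31 to -4.96 and Dnm1 from -5.93 to -4.78.

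Bsn (bassoon, a large active zone scaffold) stood at 0.43 and 114 CPM in axonal shControl and 1.37 and 0.31 CPM in axonal shPum2. Only replicate 2 of shControl was high, and the groups overlapped. Its log2 difference was -6.30 with all 4 libraries and 0.65 without that library. The authors' deposited table for axons lists Bsn at a log2 fold change of -5.52 with an adjusted p of 0.025 and Dnm1 at -5.00 with an adjusted p of 0.0163. Of the 33 genes of the set with an adjusted p in the authors' deposited table, these 2 (6.06%) were past 0.05, against 4.03% of all genes with one. For Sh3gl2 the authors' deposited table gives an adjusted p of 0.118.

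**Figure D5:**
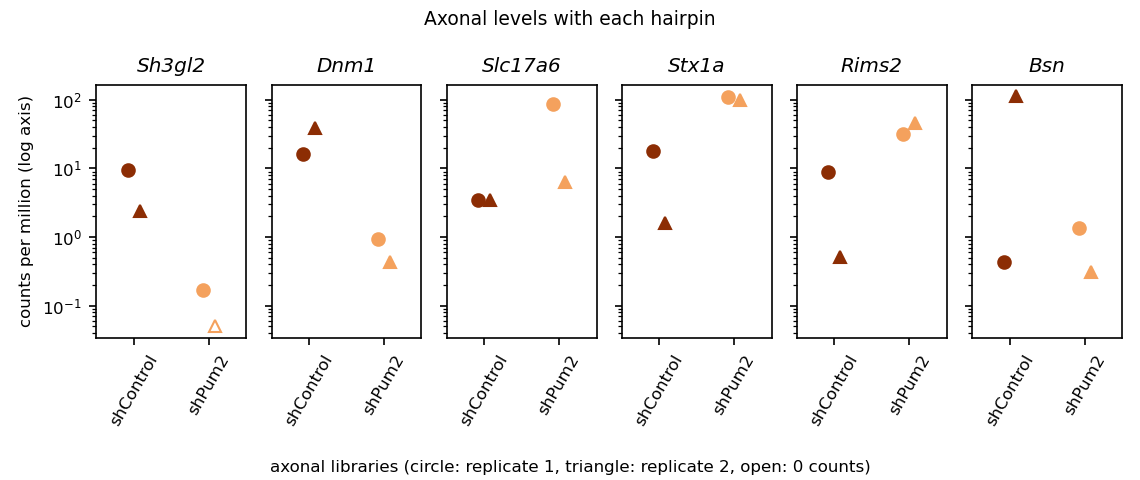
CPM (log axis) of 6 genes in the axonal shControl and shPum2 libraries, with circles for replicate 1, triangles for replicate 2 and an open symbol for 0 counts. The groups of Dnm1 and Sh3gl2 are apart with shPum2 lower, those of Stx1a, Rims2 and Slc17a6 are apart with shPum2 higher, and Bsn is high in 1 shControl library alone.

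The effect of the hairpin was also compared between the compartments. The difference of the 2 knockdown effects passed for 0 of the 39 genes and for 0% of 12337 genes by edgeR. At an unadjusted p under 0.05 there were 4 of the 39 by edgeR, against 964 of all 12337 genes. DESeq2 called 2 (Dnm1 and Sh3gl2), against 4.91% of all genes. Dnm1 had a difference of -5.31 (SE 0.91, adjusted p = 0.329, edgeR). Without replicate 1 of axonal shControl 6 passed (15.4%, against 5.62% of all genes): Stx1a, Rims1, Rims2 and Synj1 higher in axons, Bsn and Dnm1 lower. With all libraries edgeR thus called 0 of these genes, while DESeq2 called Dnm1 and Sh3gl2. The biological coefficient of variation of this fit was 91%, with 2 libraries per group. The 0 calls therefore do not show that the axonal and somatic effects were equal.

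A list of 82 other presynaptic genes, of which 75 were matched, was measured in the same fits. Between axonal and somatic shControl libraries 21 of the 72 tested passed, against 27.9% of all genes. Of these 7 were higher (against 9.41% of all genes) and 14 lower (against 18.5%). With total-count scaling 4 were higher and 24 lower, against 609 and 3606 of all 12337 genes. With shPum2 19 of the 72 passed, against 24.7% of all genes. Of these 8 were higher (against 8.45%) and 11 lower (against 16.2%). Rims3, a short relative of the Rims scaffolds, stood at 109 to 119 CPM in somatic libraries. In axonal libraries it was at 16195 and 5668 CPM with shControl and 11983 and 11084 CPM with shPum2 (log2 difference 8.23, adjusted p = 0.00418, edgeR). Whether these counts are RNA of Rims3 or reads from another source cannot be told from the estimated counts. Unc13c, a relative of Unc13a, was at 72.5 to 80.2 CPM in somatic and 251 to 590 CPM in axonal libraries, a log2 difference of 3.47 with shControl. Vamp8, a SNARE of endosomes and blood cells, was at 1.51 to 6.26 CPM in somatic and 18.5 to 44.1 CPM in axonal libraries (5.92). It stood at 18.5 CPM in the axonal library with the lowest summed macrophage markers and at 24.3 CPM in that with the highest sum. Nlgn2 (a neuroligin) and Scamp5 (a vesicle membrane protein) were lower in axonal libraries, at 0.50 to 1.12 CPM against 181 to 191 CPM and at 0.26 to 0.43 CPM against 109 to 147 CPM. In the knockdown comparisons 0 of 73 genes of this list passed in somatic and 0 of 53 in axonal libraries by edgeR. At an unadjusted p under 0.05 there were 0 and 1, against 74 of 12346 and 257 of 8517 genes. DESeq2 called 0 and 1, against 2 of 12346 and 157 of 8517 genes.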

How the data were processed

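RNA of 8 libraries (2 per group) was measured by RNA sequencing. The deposited file of each library lists, per the file headers, estimated counts and TPM for 18321 RefSeq transcripts, with transcript and effective lengths in bases. The tools kallisto and DESeq2 and the build Rnor_6.0 are named, without tool versions, in the submitters' processing notes. The authors' 2 deposited comparison tables hold, per the file headers, a log2 fold change (shPum2 relative to shControl), a test statistic (a score) and p-values for each gene. Filters and settings of the authors are not given in the sources used here.

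Symbols for 17367 of the transcripts (94.8%) came from RefSeq records of GRCr8, which also gave the promoter sequences. Counts of a symbol's transcripts were added up and rounded, and the 954 transcripts with no symbol kept their own identifiers, which gave 17379 genes in all. Reads shared by related genes were divided by the authors' estimate. Tests used edgeR 4.0.16 in R 4.3.3 (quasi-likelihood, TMM, its expression filter, Benjamini-Hochberg over all genes tested, threshold 0.05), with somatic and axonal knockdown fitted on 4 libraries each and compartment and interaction contrasts on all 8 with a single spread. The scripts were run on simulated counts as a check of the code. Alternatives were limma 3.58.1 (voom), DESeq2 1.42.0, other scalings, no filter, a replicate block and each library left out. TPM served to compare levels between genes and to give the share of Sncg in the summed level of the set. It also served to set axonal against somatic levels for Sncg and Vamp3 and in the plot of mean axonal against mean somatic levels. Precision at low levels follows from the depth: 3 counts are 0.116 to 0.258 CPM, and floors cover counting error only.

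The genes, their roles, the list of other presynaptic genes and the marker lists were chosen with earlier results of these data known. Values in every library are given for Pum2, for each gene that passed, for the 2 highest of each role group in somatic shControl TPM and for up to 5 genes per knockdown comparison with the largest difference and non-overlapping groups. Of the other presynaptic genes, the 4 with the smallest p per direction could be named. Bsn is named as a gene past the threshold of the authors' table.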

Additional observations from a re-analysis of the deposited data

How the results depend on the processing

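With DESeq2, 2 of the genes passed in the axonal knockdown, 2 in the interaction and 15 in the compartment comparison with shPum2, where edgeR called 0, 0 and 8. Over all genes DESeq2 called 157 of 8517, 606 of 12337 and 4364 of 12337 in these comparisons. Total-count scaling gave 20 calls in the compartment comparison with shControl and 15 with shPum2, against 11 and 8 under TMM. It called 34.2% and 28.8% of all genes, against 27.9% and 24.7% under TMM. The mean of both hairpins, an alternative chosen after seeing the data, gave 19 calls (3 higher, 16 lower), against 4964 of all 12337 genes. With each library left out in turn the calls ranged from 0 to 15 with shControl, from 0 to 20 with shPum2 and from 0 to 6 in the interaction. They stayed at 0 in both knockdown comparisons. A reversed direction was found for Sh3gl2 in the compartment comparison with shControl, at -1.59 to 0.41 with a library left out. The lowest value over all alternatives, -3.43, was that of the mean of both hairpins, which is not an estimate for shControl alone. Bsn was reversed in the axonal knockdown (-7.30 to 0.65). In each case the upper value was that without replicate 2 of axonal shControl. Of 561 values of single genes under an alternative, 437 kept both direction and side of the threshold. The causes of these changes were not tested.

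The fit with a replicate block gave 7 calls with shControl and 6 with shPum2 in the compartment comparisons, against 2370 and 2199 of all 12337 genes. It gave 0 in the knockdown comparisons and the interaction. The labels do not say that the numbers pair the libraries. Same-numbered libraries deviated together across genes at r = 0.67 in the somatic groups and 0.13 in the axonal groups, and at 0.06 and 0.09 between compartments. At the axonal depth, levels of genes such as Sv2c, Unc13a and Sh3gl2 rest on few counts.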
